A study of Mus musculus with 4 samples.

Results

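The activity-dependent immediate early genes Fos, Fosb, Junb, Egr1, Egr2, Egr3, Egr4, Arc, Npas4 and Nr4a1 were followed in primary cultures of mouse prefrontal cortex (PFC) grown with or without fibroblast growth factor 2 (FGF2). These 10 genes were taken by name from the 55421 genes listed in the count tables, and all 10 were found and tested. With FGF2, 5 of them (Egr2, Junb, Fos, Nr4a1 and Egr1) were called higher and 2 (Egr3 and Arc) were called lower. The other 3 (Fosb, Npas4 and Egr4) did not pass the test. Of all tested genes, 20.7% were called higher and 19.9% lower. The 2 of 10 called lower are thus close to the background share. The groups of Arc overlapped, and its call was lost with DESeq2, with limma-voom, without an expression filter and without either of 2 single libraries.

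The cultures came from dissociated PFC of wild-type C57BL/6 mice at postnatal day 0 (P0) and were kept for 10 days in neurobasal medium with B27 and GlutaMAX. The 2 FGF2 libraries were made from cultures that received 5 ng/mL FGF2, and the 2 no FGF2 libraries from cultures that did not. Total RNA of the whole culture was sequenced, with no sorting of cells. Apart from 2 human ages, the paired libraries are called technical replicates in the methods, in a passage on RNA sequencing that does not list the mouse cultures. The p-values below therefore measure only the spread between these libraries, which may be technical. No agent that drives or blocks neuronal firing is named for either group, firing was not measured, and the exact time from the last medium change to harvest is not given in the sources used here. Per the labels, part of the medium was renewed every 2 days once 5 days had passed.

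Immediate early genes are switched on within minutes of a stimulus without the need for new protein. In neurons, synaptic activity and calcium entry act on CREB, SRF and MEF2, the transcription factors that sit at their promoters. Growth factors reach many of the same promoters through the ERK kinase cascade, in glia as well as in neurons. Most of the 10 genes encode transcription factors, whereas Arc encodes a protein of dendrites and synapses that promotes the removal of AMPA receptors from the surface. Npas4 is the one among them known for responding to calcium entry in neurons rather than to growth factors.

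Promoter sequence was searched for 7 of the 10 genes. Egr1, Egr3 and Arc were left out of this search, so the motif counts below say nothing about them. The promoters of 5 genes are shown here because they include the genes with the largest changes and, for contrast, Egr4. The bases lie directly before annotated start sites (RefSeq, GRCm38.p6), are written 5′ to 3′ on the strand of the gene, and were kept clear of annotated exons of the same gene. Capitals mark the CRE half-site TGACG on either strand, a core of the site bound by CREB, and the CArG box, the site bound by SRF. For Egr2, 1 of its 5 annotated start sites is shown.
Fos (chr12:85473640-85473889, plus strand): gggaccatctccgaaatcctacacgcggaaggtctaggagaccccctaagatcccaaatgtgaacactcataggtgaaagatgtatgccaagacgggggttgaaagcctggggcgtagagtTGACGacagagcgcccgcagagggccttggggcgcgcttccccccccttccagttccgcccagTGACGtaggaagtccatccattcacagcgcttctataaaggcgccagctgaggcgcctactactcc
Junb (chr8:84978749-84978998, minus strand): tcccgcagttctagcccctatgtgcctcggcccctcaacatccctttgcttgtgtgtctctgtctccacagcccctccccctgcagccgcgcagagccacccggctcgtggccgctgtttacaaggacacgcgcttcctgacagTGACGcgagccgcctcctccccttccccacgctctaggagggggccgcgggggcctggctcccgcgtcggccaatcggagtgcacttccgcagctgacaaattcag
Egr2 (chr10:67537619-67537868, plus strand): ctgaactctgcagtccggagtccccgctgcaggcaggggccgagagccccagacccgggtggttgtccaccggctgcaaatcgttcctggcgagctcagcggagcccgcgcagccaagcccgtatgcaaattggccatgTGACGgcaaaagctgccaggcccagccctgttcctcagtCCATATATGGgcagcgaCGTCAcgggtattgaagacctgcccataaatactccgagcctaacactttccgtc
Egr4 (chr6:85513590-85513839, minus strand): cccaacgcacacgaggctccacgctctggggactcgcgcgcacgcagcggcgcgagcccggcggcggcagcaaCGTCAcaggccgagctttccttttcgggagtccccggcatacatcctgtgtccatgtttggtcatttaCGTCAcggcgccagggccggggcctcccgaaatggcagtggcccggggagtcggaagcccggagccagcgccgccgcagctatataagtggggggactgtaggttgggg
Nr4a1 (chr15:101266596-101266845, plus strand): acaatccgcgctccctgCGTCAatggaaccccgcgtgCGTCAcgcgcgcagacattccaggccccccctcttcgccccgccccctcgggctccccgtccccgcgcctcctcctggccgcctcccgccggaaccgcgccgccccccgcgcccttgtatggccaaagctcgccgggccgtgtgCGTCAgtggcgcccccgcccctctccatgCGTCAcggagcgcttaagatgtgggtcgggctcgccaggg

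The half-site TGACG was found within 250 bases before a start site in 7 of 7 genes searched. Of the 32851 windows in the same RefSeq table, 17.8% held it, as did 19.8% of the 27025 genes they belong to. In Fos it lay 129 to 125 and 66 to 62 bases before the start, and in Junb once, 106 to 102 bases before it. Nr4a1 held 4 copies and Egr4 2 copies, and Egr4 did not pass the test for a change. Among the 7 genes searched, the CArG box was found only in Egr2, 72 to 63 bases before the start shown, against 1.47% of all windows. Sites more than 250 bases before a start were not searched, so the other genes may hold the box further upstream. The element TATAAA was found only in Fos (12.4% of all windows). The full CRE TGACGTCA, which contains the half-site, was in none of the 7 genes (1.55% of all windows), nor were the AP-1 site TGANTCA (6.75%) or the EGR site GCGTGGGCG (0.536%). Both strands were searched for every motif, and a match of letters says nothing about whether a factor was bound.

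Levels are given in CPM, the count of a gene per 1000000 counts on genes in that library after TMM scaling, for FGF2 libraries 1 and 2 and then no FGF2 libraries 1 and 2. Changes are log2 fold changes of FGF2 over no FGF2, and a gene passed the test where its adjusted p was below 0.05 in edgeR's quasi-likelihood test across 17144 genes, with Benjamini-Hochberg adjustment over all of them. The test called 40.5% of all tested genes, 20.7% higher and 19.9% lower with FGF2, so a call alone does not set a gene apart from the background of this comparison. Of the 10 immediate early genes, 7 were called, 5 higher and 2 lower. A call with a rise of more than 1 on the log2 scale was seen in 4 of the 10 (Egr2, Junb, Fos and Nr4a1). The share of all tested genes that were called higher with such a rise was 5.22%. The 10 genes were chosen with earlier results of these data known, so setting these shares side by side is no test. The median log2 fold change of the 10 genes was 0.70, and that of all tested genes was close to 0.

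The AP-1 members come first. Fos, the partner of Jun proteins in the AP-1 dimer and the most used marker of recently stimulated neurons, stood at 57.5 and 51.9 CPM with FGF2 and at 15.5 and 15.3 CPM without. Both FGF2 libraries lay far above both no FGF2 libraries. The mean was 54.7 ± 4.01 CPM (SD, n = 2) against 15.4 ± 0.128 CPM (SD, n = 2), a log2 fold change of 1.82 (SE 0.11, edgeR adjusted p = 2.2e-56), which is 3.54-fold (95% interval 3.04 to 4.13).

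Junb, a Jun family protein that pairs with Fos, stood at 36.7 and 34.2 CPM with FGF2 and at 7.99 and 6.47 CPM without. The groups did not overlap, and the rise of 2.29 on the log2 scale (SE 0.15, edgeR adjusted p = 9.1e-53) was 4.90-fold. Exons of Junb share 173 bases with Prdx2 on the opposite strand. The counts of Prdx2 were 1913 and 2068 in the FGF2 libraries and 2017 and 2041 in the others, so they did not follow those of Junb.

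Fosb, a close relative of Fos whose truncated product builds up with repeated stimulation, was much lower, at 4.63 and 3.25 CPM with FGF2 and 2.47 and 2.49 CPM without. Both FGF2 libraries were above both others, but they rested on only 42 and 32 counts. The log2 difference of 0.66 (SE 0.35, 95% interval -0.02 to 1.33) did not pass the test (edgeR adjusted p = 0.119). This interval holds both no change and a change as large as that of Egr1.

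**Figure D1:**
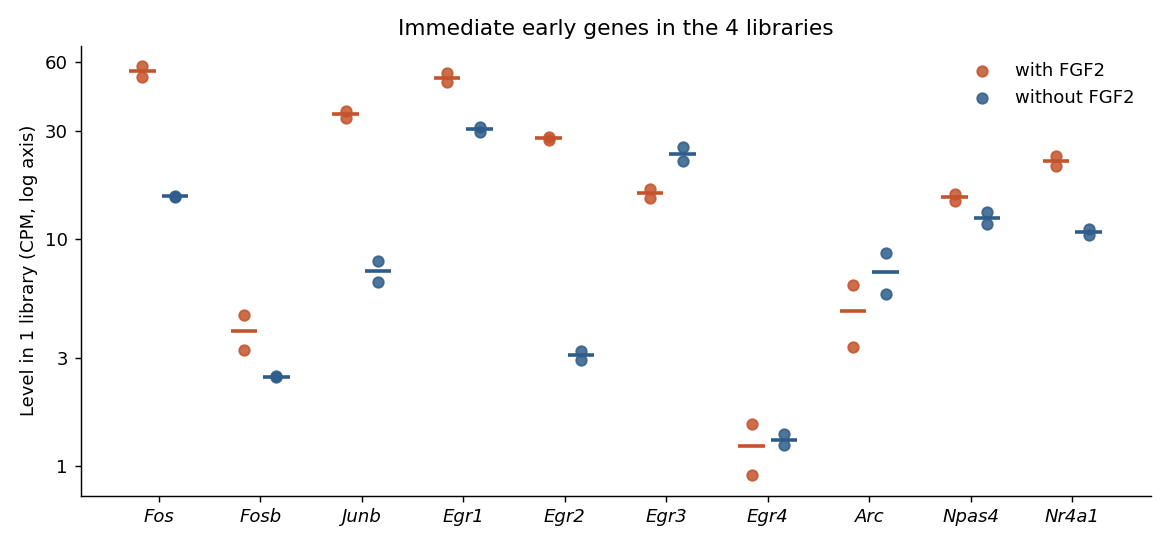
Level of each of the 10 immediate early genes in CPM (log axis) in every library, with FGF2 (orange) and without FGF2 (blue). Points are single libraries and bars are means of 2; Fos, Junb, Egr2 and Nr4a1 show the widest gaps between the groups, Egr3 lies lower with FGF2, and the points of Egr4 and of Arc overlap.

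The 4 EGR genes, which encode zinc finger factors that bind the same GC-rich site, did not move together. Egr2, known from myelinating Schwann cells and hindbrain patterning as well as from stimulated neurons, had the largest change of the 10 genes. It stood at 28.2 and 27.4 CPM with FGF2 and at 2.95 and 3.23 CPM without, so that the FGF2 libraries differed from each other by far less than from the rest. The mean of 27.8 ± 0.610 CPM (SD, n = 2) against 3.09 ± 0.200 CPM (SD, n = 2) gave a log2 fold change of 3.16 (SE 0.19, edgeR adjusted p = 1.8e-61), which is 8.95-fold (95% interval 6.93 to 11.5). Egr2 ranked 78 among the 17144 tested genes ordered from the largest rise.

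Egr1, widely used as a marker of activity in cortex, stood at 53.6 and 49.0 CPM with FGF2 and at 31.2 and 29.7 CPM without. The groups did not overlap. Its rise was 0.75 on the log2 scale (SE 0.10, edgeR adjusted p = 4.2e-13), or 1.68-fold, and Egr1 ranked 1530 in the same order.

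Egr3, also known for its need in muscle spindle development, went the other way. It stood at 15.1 and 16.7 CPM with FGF2 and at 25.4 and 22.1 CPM without, and all FGF2 values were below all others. Egr3 fell by 0.58 on the log2 scale (SE 0.14, edgeR adjusted p = 0.000123), so that its level was 1.49-fold higher without FGF2.

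Egr4 had the fewest counts of the 10 genes, with 14 and 9 in the FGF2 libraries and 13 and 15 counts in the others. The groups overlapped, and the log2 difference of -0.10 (SE 0.54, edgeR adjusted p = 0.907) had a 95% interval from -1.16 to 0.95. Transcripts of the EGR genes resemble each other, but at most to 83.0% identity over 224 bases (Egr3 and Egr4), and no aligned stretch of 100 bases or more reached 95% with any other gene.

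Nr4a1, an orphan nuclear receptor also called Nur77, stood at 21.05 and 23.28 CPM with FGF2 and at 11.04 and 10.44 CPM without. No value of one group came near the other, and Nr4a1 rose by 1.05 on the log2 scale (SE 0.15, edgeR adjusted p = 6.3e-11), or 2.07-fold. Npas4, a bHLH-PAS factor that shapes inhibitory synapses after activity, stood at 14.8 and 15.9 CPM with FGF2 and at 11.7 and 13.1 CPM without. Its FGF2 values were both higher, yet the log2 difference of 0.30 (SE 0.16, 95% interval -0.01 to 0.62) did not pass the test (edgeR adjusted p = 0.124).

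Arc stood at 6.28 and 3.36 CPM with FGF2 and at 8.66 and 5.73 CPM without. Its groups overlapped, since FGF2 library 1 lay above no FGF2 library 2. Arc fell by 0.59 on the log2 scale (SE 0.25, 95% interval -1.07 to -0.10) at an edgeR adjusted p of 0.0451, the highest among the 7 genes called. Without FGF2 library 2 the log2 difference was -0.20 (edgeR adjusted p = 0.638), and without no FGF2 library 1 it was -0.26 (edgeR adjusted p = 0.622). DESeq2 gave -0.58 with an adjusted p of 0.386, so the call of Arc rests on single libraries and on the tool.

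Groups that do not overlap are common here, at 67.1% of all tested genes (33.6% higher and 33.4% lower with FGF2). Among the 10 immediate early genes, 7 had both FGF2 libraries above both others, 1 had both below, and 2 overlapped. The summed level of the 10 genes lay between 226 and 239 CPM with FGF2 and between 110 and 118 CPM without.

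**Figure D2:**
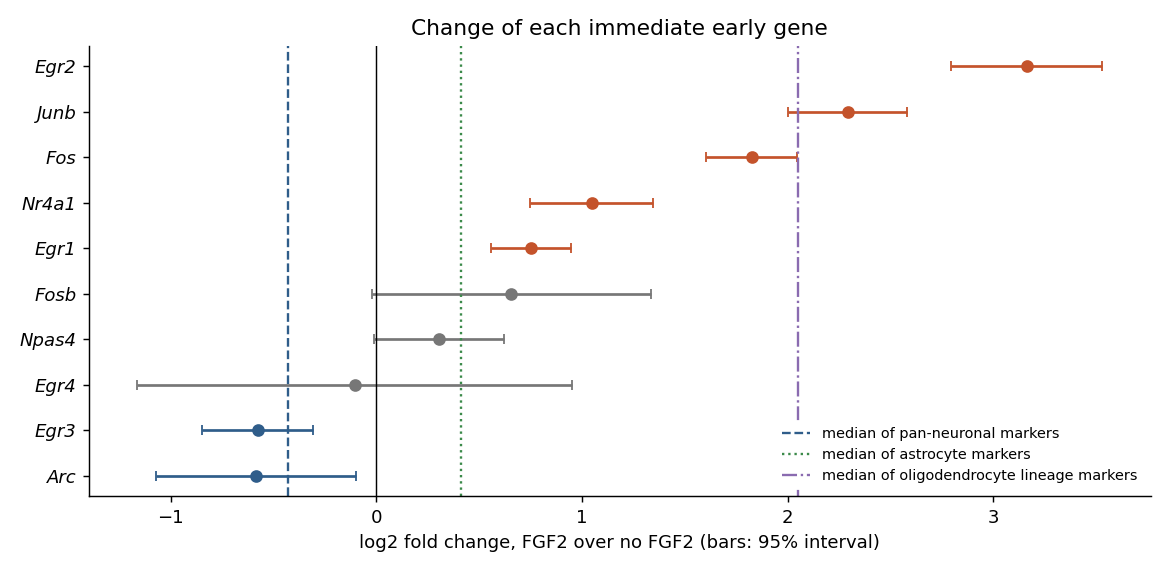
Log2 fold change (FGF2 over no FGF2) of each immediate early gene with its 95% interval, coloured by whether it passed the test higher (orange), passed lower (blue) or did not pass (gray). Vertical lines mark the medians of the pan-neuronal (-0.43), astrocyte (0.41) and oligodendrocyte lineage (2.05) marker lists; Egr2 and Junb lie above all 3 medians, and Egr3 and Arc lie near the pan-neuronal one.

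Markers of cell types moved between the same libraries. In bulk RNA, fewer cells of a type and less RNA per cell cannot be told apart. Pan-neuronal markers were lower with FGF2 in 10 of 12 genes and higher in 1 (Nefl, not called with DESeq2 or without no FGF2 library 2), and their summed level was 3866 to 3986 CPM with FGF2 and 5575 to 5583 CPM without. DESeq2 called 8 of these 12 pan-neuronal markers lower. Map2, a dendritic microtubule protein, fell by 0.32 and Tubb3, a neuronal tubulin, fell by 1.10 on the log2 scale. Inhibitory neuron markers were lower in 11 of 11 genes (10 with DESeq2), including the GABA-synthesizing enzymes Gad1 and Gad2. Excitatory neuron markers were lower in 7 of 12. This count was 6 without an expression filter, with limma-voom or with a replicate block, and 5 with DESeq2. Astrocyte markers were higher in 8 of 10 genes and lower in 1 (Fgfr3), at 12628 to 12753 CPM against 7742 to 7793 CPM. Oligodendrocyte lineage markers were higher in all 9 tested genes, at 1864 to 1873 CPM against 560 to 569 CPM. Microglia markers were scarce, at 17.2 to 20.6 CPM against 9.14 to 9.42 CPM, with 3 of 5 tested genes higher, and 1 with DESeq2 or without FGF2 library 2 or no FGF2 library 2. The part of these shifts in the changes of the immediate early genes was not tested.

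Set against the pan-neuronal median of -0.43, the log2 fold changes of Egr3 and Arc were lower by little, with differences of -0.15 and -0.16. Egr2, Junb and Fos stood above that median by 3.59, 2.72 and 2.25, and above the astrocyte median of 0.41 by 2.75, 1.88 and 1.41. Npas4 stood above the pan-neuronal median by 0.73 and at -0.11 from the astrocyte one. The oligodendrocyte lineage median of 2.05 was larger than the change of Fos and smaller than those of Egr2 and Junb. These differences carry no test.

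Levels of different genes were compared as CPM per kilobase of exonic length. With FGF2 the order was led by Fos (23.3 CPM per kilobase), Junb (15.4), Egr1 (11.4), Egr2 (8.18) and Nr4a1 (6.32), each apart from the next in both libraries. Npas4 (3.70) and Egr3 (3.61) followed and could not be ordered, and Arc (1.58), Fosb (0.631) and Egr4 (0.572) were last, with the values of Fosb and Egr4 overlapping. Without FGF2 the order was led by Egr1 (6.79), Fos (6.56) and Egr3 (5.39). Junb (3.14), Nr4a1 (3.06), Npas4 (3.00) and Arc (2.35) came next, each overlapping with its neighbour, and Egr2 (0.910), Egr4 (0.611) and Fosb (0.398) were the lowest. Egr2 thus stood above Egr3 with FGF2 and below it without.

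The ratio of 2 genes within 1 library does not depend on how the libraries are scaled. The pairs were chosen after the values had been seen, and they carry no test. Egr2 over Egr3, per kilobase, was 2.42 and 2.13 with FGF2 and 0.151 and 0.190 without. Egr1 over Egr3 was 3.49 and 2.89 with FGF2 and 1.21 and 1.32 without, so within the EGR family the balance lay further towards Egr1 and Egr2 in the FGF2 libraries. Fos over Fosb was 33.0 and 42.3 with FGF2 and 16.6 and 16.3 without. Fos over Npas4 was 6.85 and 5.75 with FGF2 and 2.33 and 2.06 without, and Fos over Arc was 11.9 and 20.1 against 2.33 and 3.48. Fos therefore stood higher relative to each of these 3 genes in both FGF2 libraries. Junb over Jund, a Jun gene that did not pass the test, was 0.714 and 0.788 with FGF2 and 0.181 and 0.144 without. Nr4a1 over its relative Nr4a3 was 0.871 and 1.17 with FGF2 and 0.446 and 0.370 without.

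**Figure D3:**
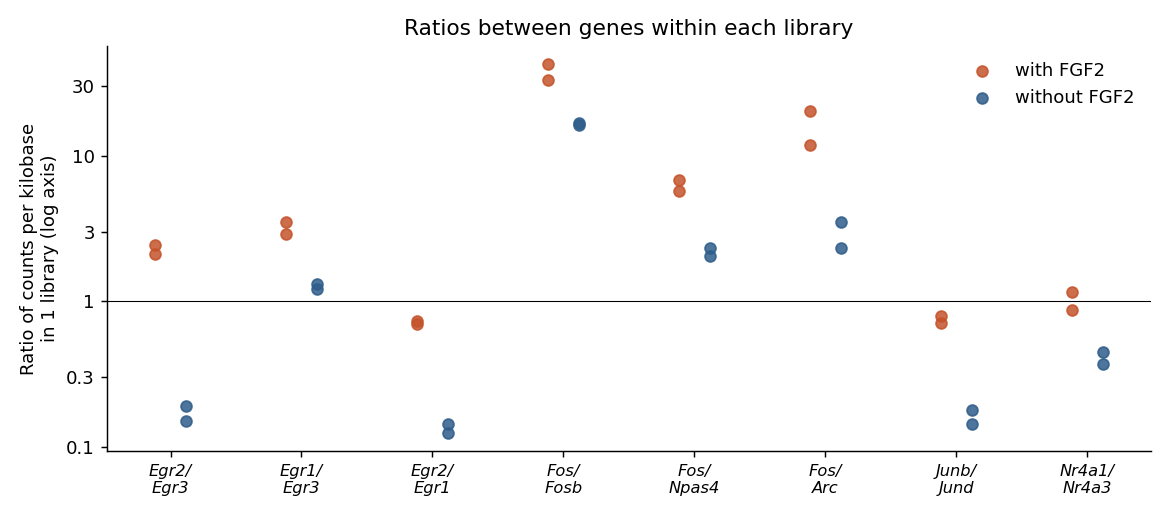
Ratio of counts per kilobase between 2 genes within each library (log axis), with FGF2 (orange) and without FGF2 (blue), where a point is 1 library and the line at 1 marks equal levels. In all 8 pairs both FGF2 points lie above both no FGF2 points, and Egr2 over Egr3 crosses the line, from 0.151 and 0.190 to 2.42 and 2.13.

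Other immediate early genes, which respond to growth factors and stress in many cell types, were also called in both directions. Of 22 tested genes, 12 were higher, 3 were lower and 7 did not pass, with a median log2 fold change of 0.63. The largest changes were those of Ier3, a survival gene induced by growth factors (3.97), Zfp36, which promotes decay of inflammatory mRNAs (2.85), Gadd45b (1.96) and the stress factor Atf3 (1.83). Of the AP-1 genes in this list, Fosl2 rose by 1.20 and Jun by 0.46. Fosl1 was too low to be tested, at 14 and 4 counts in the FGF2 libraries against 3 and 2 in the others. Among the relatives of Nr4a1, Nr4a2 had a log2 difference of 0.05 (edgeR adjusted p = 0.852), and Nr4a3 fell by 0.27 (edgeR adjusted p = 0.0175). DESeq2 called 11 genes of this list higher and 2 lower.

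In a list of activity-regulated effector genes, 4 of 14 tested genes were higher and 6 lower, with a median log2 fold change of -0.49. Bdnf, the neurotrophin released by active neurons, rose by 0.77 (edgeR adjusted p = 0.00231). Homer1, a postsynaptic scaffold gene, fell by 0.49 (edgeR adjusted p = 1.1e-09), and Inhba, an activin subunit gene, fell by 0.86 (edgeR adjusted p = 0.0466). Inhba rested on 13 and 26 counts in the FGF2 libraries against 40 and 40 in the others. Ptgs2, which encodes the prostaglandin synthase COX-2, was counted 87 and 105 times in the FGF2 libraries against 3 and 2 times in the others. Tac1, the precursor gene of substance P, was counted 3 and 1 times in the FGF2 libraries against 23 and 11 times in the others. Both passed the test, and no fold is given because of the low counts of one group. DESeq2 called 2 genes of this group higher and 4 lower. Without an expression filter, and with limma-voom, 5 were lower.

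Upstream of the immediate early genes, 17 CREB, SRF and MEF2 regulators were tested. Of these, 2 were higher and 7 lower, with log2 fold changes between -0.46 and 1.08. Creb1 (0.04, edgeR adjusted p = 0.747) and Srf (-0.16, edgeR adjusted p = 0.351) did not pass the test. Elk3, an SRF partner, rose by 1.08, while the CREB coactivator Crtc1 fell by 0.46, the SRF coactivator Mrtfa by 0.42, Mef2d by 0.38 and Mef2c by 0.12. These are transcript levels, and the activity of such factors is set largely by phosphorylation and location, which were not measured.

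Among 7 partners and corepressors, 3 were higher and 1 was lower. Nab1 and Nab2, corepressors that bind EGR proteins, rose by 0.79 and 0.51, and Arnt, a bHLH-PAS partner, rose by 0.25. Rxrg, a retinoid X receptor gene, fell by 0.87. DESeq2, or edgeR without no FGF2 library 2, called 1 gene of this group higher.

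Of 11 ERK cascade kinases, 2 were higher and 4 lower. The RSK kinase genes were split, since Rps6ka1 rose by 0.72 and Rps6ka3 by 0.42, while Rps6ka2 fell by 0.67. Genes of calcium entry and calmodulin kinases were lower in 8 of 10 and higher in 1 (in none with DESeq2 or without FGF2 library 2 or either no FGF2 library), with a median of -0.49, close to the pan-neuronal median of -0.43. Cacna1d fell by 0.76, Camk2b by 0.70, Grin2b by 0.69 and Cacna1c by 0.62. The FGF and ERK feedback list joins genes that are induced by ERK signalling and damp it with the ETS factor genes Etv1, Etv4 and Etv5. Of its 12 genes, 8 were higher and 1 was lower. Spry4 rose by 1.04, Spry1 by 0.85 and Dusp6 by 0.48. Of the ETS factor genes, Etv5 rose by 0.47 and Etv1 by 0.17, while Etv4 fell by 0.63. Without no FGF2 library 1, 5 of these 12 were higher and 0 lower, and with DESeq2 3 were higher and 0 lower. Without FGF2 library 2, 0 were lower.

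**Figure D4:**
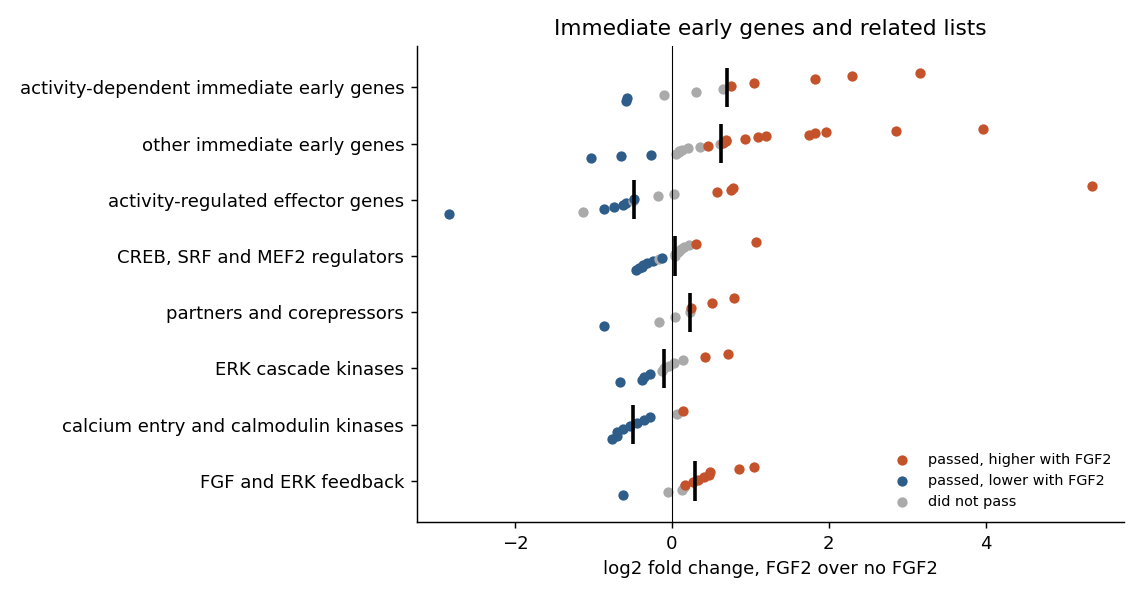
Log2 fold change (FGF2 over no FGF2) of every tested gene in the immediate early genes and 7 related lists, coloured by test result (orange higher, blue lower, gray not passed), with a bar at the median of each list. The medians of the 10 genes (0.70) and of the other immediate early genes (0.63) lie to the right, that of the calcium entry list (-0.49) to the left; the outermost points of the effector list, Ptgs2 and Tac1, rest on under 5 counts in one group and their positions depend on the prior count.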

How the data were processed

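Per the labels and the methods, total RNA libraries (paired-end, 150 bases) were aligned by the authors to mm10 with HISAT2 2.1.0, kept at mapping quality 20 or more, and counted per gene with HTSeq 0.11.2. The annotation release and strand setting are not given in the sources used here. The deposited values are raw counts for 55421 genes and 5 tally rows, which were left out (no feature, 43.2% to 45.9% of counts on genes plus tallies; ambiguous, 1.47% to 1.76%). Totals on genes were 9166432 to 10799886 per library. Genes covered by a gene on the opposite strand held counts in 161 of 472 cases, and genes covered on the same strand in 4 of 692.

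Symbols and exonic lengths came from GENCODE M21 (55154 IDs matched). The members and lists were chosen with earlier results of these data known. The named genes were all 10 members and, of each list, up to 4 called genes with the largest absolute change plus a set of well known ones and the first 2 of each marker list; 1 gene that this rule names is not reported here. Counts were tested with edgeR 4.0.16 (R 4.3.3): TMM factors (0.992 to 1.01), filterByExpr by group, robust quasi-likelihood fit and prior count 0.125, FGF2 against no FGF2 with no block, on all 4 libraries. The biological coefficient of variation was 3.90%. Alternatives were DESeq2 1.42.0 (the tool named in the methods), limma-voom 3.58.1, other scalings and filters, a replicate block and leaving out each library. edgeR, limma-voom and DESeq2 were first tested on simulated data. An exact permutation test of 2 against 2 cannot go below p = 0.333, so none was used. Replicates differed by more than counting noise (chi-square per degree of freedom 2.28 with FGF2 and 1.76 without). Similar transcripts were searched with BLAST 2.17.0.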

Additional observations from a re-analysis of the deposited data

How the results depend on the processing

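The number of immediate early genes called higher was 5 under every alternative run. The number called lower was 2, and 1 without an expression filter, with DESeq2, with limma-voom, at an adjusted p threshold of 0.01, and 1 to 2 when single libraries were left out. Arc accounts for this: its log2 fold change was -0.58 without a filter (edgeR adjusted p = 0.0719), -0.58 with DESeq2 (adjusted p = 0.386) and -0.62 with limma-voom (adjusted p = 0.0502), and -1.10 to -0.20 when single libraries were left out. Egr4, not called, ranged from -0.52 to 0.23 over the same omissions. DESeq2 called 4007 genes in all against 6949, of which 4005 were shared in the same direction, and gave 11821 listed genes no adjusted p. What the replicate numbers stand for is not stated. Deviations of same-numbered libraries had a correlation of 1.3e-05 across 17144 genes. This value weighs all genes alike, including those with few counts, so it cannot tell whether same-numbered libraries share a preparation. With the replicate block, 6814 genes were called, 5 immediate early genes higher and 2 lower. Over the lists, 25 of 408 recomputed counts moved by more than 1.5 times. Taking the longest transcript as length placed Fos above Egr1, Nr4a1 above Junb and Fosb above Egr4 without FGF2. Egr4 had no value with at least 10 counts required in every library. Depth limits Egr4 and Fosb most, at 9 to 42 counts.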

Other observations

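Proliferation genes were lower with FGF2 in 7 of 8 (5 with DESeq2), with a summed level of 223 to 227 CPM against 307 to 308 CPM. Top2a, a topoisomerase of dividing cells, fell by 0.57, while Mki67 did not pass the test (-0.10, edgeR adjusted p = 0.331). Of 5 tested heat shock genes, which respond to handling and protein stress, 1 was lower and none was higher. Hsph1 fell by 0.47, and the inducible Hsp70 genes Hspa1a (0.27, edgeR adjusted p = 0.534) and Hspa1b (-0.28, edgeR adjusted p = 0.652) did not pass the test.

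Vascular and meningeal markers were scarce. The endothelial list summed to 7.73 to 9.92 CPM with FGF2 and 4.95 to 8.50 CPM without, and Cldn5, a defining tight junction gene, was at 0 counts in all 4 libraries. The mural and meningeal list summed to 64.6 to 68.3 CPM against 53.8 to 55.1 CPM, with 2 of 7 tested genes higher and 2 lower. Pdgfrb rose by 0.73 and Col1a1 fell by 2.18 on the log2 scale.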
